A study of Mus musculus with 36 samples.

Results

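Whole heart RNA of cSirt4-Tg mice that underwent TAC and received MitoQ was compared with that of cSirt4-Tg mice that underwent TAC and received vehicle. The libraries were chosen by their sample titles: 6 MitoQ libraries (Tg-TAC-MQ) and 6 vehicle libraries (Tg-TAC), 12 of the 36 in the series. Both groups carried the cSirt4-Tg genotype and the TAC operation, so MitoQ was the only difference that the sample labels named. Every difference is given as MitoQ minus vehicle. The other groups, also of 6 libraries each, were cSirt4-Tg mice after sham surgery with vehicle (Tg-Sham) and control mice after sham surgery with vehicle (Con-Sham), TAC with vehicle (Con-TAC) or TAC with MitoQ (Con-TAC-MQ). The promoter that drives the transgene, the strain, age and sex of the mice, the time after surgery and the dose and duration of MitoQ were not given in the sources used here. Through the series the submitters asked by which genes mitochondrial reactive oxygen species might worsen heart disease in cSirt4-Tg mice.

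TAC, or transverse aortic constriction, narrows the aorta and makes the left ventricle pump against a raised pressure, which leads to hypertrophy, fibrosis and later to failure. In such hearts the fetal gene programme returns, ion channel and fatty acid oxidation genes are commonly lowered, and TGF-beta signalling turns fibroblasts into matrix-secreting myofibroblasts. Sirt4 is a sirtuin of the mitochondrial matrix. MitoQ is a ubiquinone joined to a lipophilic cation that carries it into mitochondria, where it is reduced and acts as an antioxidant.

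Each library was described by the read count of each gene divided by a factor for that library, called the normalised count here. The vehicle libraries held 14.8 to 55.4 M reads in genes and the MitoQ libraries 21.3 to 53.2 M. Cardiomyocyte markers were present in every library: none of the 15 was at 0 in any of the 12. A pair of vehicle libraries lay at the opposite ends of the first principal component of the 12, which held 37.1% of the variance. Tg-TAC 4, the shallowest, had the highest levels of collagen, adipocyte and lymphocyte genes, and Tg-TAC 6 had collagen and channel gene levels near those of sham hearts. Vehicle libraries correlated with each other at r = 0.874 to 0.976 and MitoQ libraries at 0.978 to 0.99, and the median standard deviation of a gene was 0.351 against 0.169 on the log2 scale. The deposited library names hold a number that was 20 or 21 in all MitoQ libraries and 7, 9, 11, 12 or 29 in the Tg-TAC libraries. Its meaning was not given in the sources used here, so number and MitoQ cannot be told apart in these hearts.

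Sirt4, a mitochondrial lipoamidase and ADP-ribosyltransferase (ENSMUSG00000029524, mm39 chromosome 5, 115616069 to 115622784), checks the genotype label. Its lowest, median and highest normalised counts were 313, 343 and 473 in the vehicle group and 311, 355 and 376 in the MitoQ group. The groups overlapped (log2 difference -0.04, exact two-sided permutation test p = 0.764, n = 6 against 6, smallest possible p = 0.00216). Nor was Sirt4 set apart by genotype: the log2 difference between Tg-TAC-MQ and Con-TAC-MQ was -0.02 (exact permutation p = 0.742), and that between Tg-TAC and Con-TAC was 0.09 (exact permutation p = 0.528). Adjusted over the 3 comparisons, each p was 0.764. Among the TAC libraries the counts therefore do not separate those labelled cSirt4-Tg from the control ones. The sham libraries were not compared for Sirt4, and the transcript that the transgene encodes was not given in the sources used here.

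MitoQ-treated cSirt4-Tg hearts had less RNA from fibrosis genes such as Comp, Ccn5, Meox1 and Sparc. They had more from genes of ion channels, calcium cycling and the use of fatty acids or its regulation, such as Abcc9, Ryr2 and Ppara. Of these, Ryr2 no longer passed with a trend on transcript length removed. Cytosolic ribosomal protein and proteasome genes were lower by small amounts, and the mean level of each list set the groups apart. Fewer of both kinds fell with the length trend removed. In both lists Con-TAC 6, a vehicle library that shares the number 20 with MitoQ libraries, lay below the other 5 Con-TAC libraries. That library also lay outside the range of the other 5 in many other lists. Of 16275 genes tested with limma across all genes, 2821 passed an adjusted p of 0.05, and these are the genes said to have changed. That was 17.3% of the genes tested: 1610 rose (9.89%) and 1211 fell (7.44%). Among them, 276 rose and 164 fell by at least 2-fold. The median size of a change was 0.467 on the log2 scale, and the median difference over all genes tested was -0.0002. The MitoQ and vehicle groups did not overlap in 1070 genes, 6.57% of those tested (3.66% higher and 2.91% lower with MitoQ). In whole tissue, fewer cells of a type and less RNA per cell cannot be told apart.

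**Figure D1:**
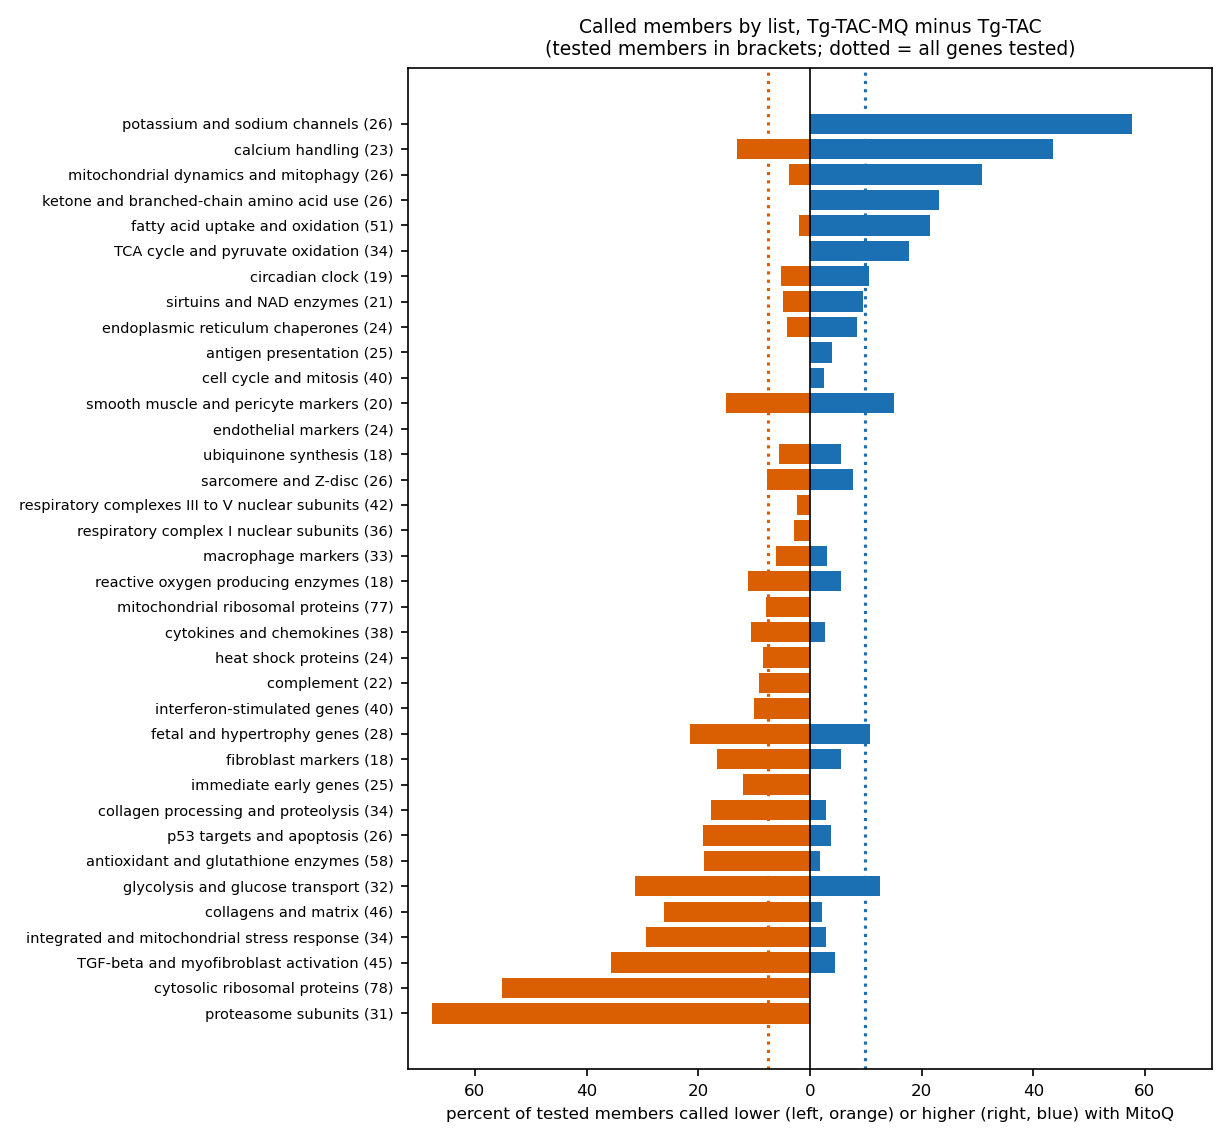
Percent of the members that fell (left) or rose (right) with MitoQ in each gene list with at least 18 members tested, by limma at an adjusted p of 0.05. Dotted lines mark the 7.44% and 9.89% over all genes tested. Of the lists drawn, proteasome, cytosolic ribosomal and TGF-beta genes reach furthest to the left and the potassium and sodium channel list furthest to the right.

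The matrix of the overloaded heart is laid down by fibroblasts that respond to TGF-beta, and genes of that pathway and of the matrix fell more often than they rose. In the list of TGF-beta and myofibroblast activation genes, 16 of 45 fell and 2 rose, with a median difference of -0.55 against -0.0002 over all genes. In the list of collagens and other matrix proteins, 12 of 46 fell and 1 rose, with a median of -0.58. Of the enzymes that process collagen and cut matrix, 6 of 34 fell and 1 rose, with a median of -0.38. The shares that fell were 35.6%, 26.1% and 17.6% in that order, beside 7.44% of all genes. Those that rose were 4.44%, 2.17% and 2.94%, beside 9.89%. When each of the 12 libraries was left out in turn, the falls ran from 8 (without Tg-TAC 5) to 23 (without Tg-TAC 6) in the TGF-beta list, 3 (without Tg-TAC 5) to 31 (without Tg-TAC 6) in the matrix list and 4 to 20 (without Tg-TAC 6) in the processing list. With a trend on transcript length removed, 14, 11 and 2 fell. In a fit of the 12 compared libraries alone, 10, 5 and 5 fell and 3, 0 and 1 rose, in that order. Over all genes tested, 1009 fell and 1204 rose in that fit.

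Among the ligands, Tgfb1 had lowest, median and highest normalised counts of 922, 1235 and 1609.6 with vehicle and 745, 858 and 903 with MitoQ. It fell in all 6 MitoQ libraries relative to every vehicle library (log2 difference -0.49, SE 0.14, adjusted p = 0.0112). Tgfb2 went from 232, 1742 and 2909 to 421, 498 and 669 (log2 difference -1.38, SE 0.45, adjusted p = 0.0334). Here 5 of the 6 vehicle libraries lay above every MitoQ library, and Tg-TAC 6 lay far below them; when each of the 12 libraries was left out in turn, the call was lost in 9 of 12 leave-out repeats (adjusted p up to 0.0949). Tgfb3 fell by 0.96 on the log2 scale (adjusted p = 0.0175) and Inhba, a subunit of activin, by 1.29 (adjusted p = 0.0288), the latter with no overlap between groups. Bmp4, a ligand of the same superfamily, also fell (log2 difference -1.02, adjusted p = 0.00287). The latent TGF-beta binding proteins, which hold the ligands in the matrix, were split: Ltbp3 (-0.66) and Ltbp4 (-0.48) fell, and Ltbp1 rose (log2 difference 0.49). Without Tg-TAC 4 or Tg-TAC 5 alone, Tgfb3 no longer passed (adjusted p up to 0.0531). Without Tg-TAC 1, Tg-TAC 4 or Tg-TAC 5 alone, Ltbp3 no longer passed (adjusted p up to 0.0749). Inhba lost its call in 4 of the 12 leave-out repeats (adjusted p up to 0.0722) and Ltbp1 in 4 (adjusted p up to 0.0841).

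Smad6, an inhibitor that BMP and TGF-beta signals induce, had the smallest adjusted p of the list. Its normalised counts were 447, 510.3 and 789 with vehicle and 289.5, 329 and 394 with MitoQ, beside a Tg-Sham median of 282 (log2 difference -0.72, SE 0.13, adjusted p = 0.000339). All 6 MitoQ libraries lay below all 6 vehicle libraries. Meox1, a homeobox factor of activated fibroblasts, went from 318, 1467 and 2067 to 339, 438 and 538 (log2 difference -1.42, SE 0.38, adjusted p = 0.0106). Tg-TAC 6 lay below every MitoQ library, and the other 5 vehicle libraries were all above them. Ccn2, or connective tissue growth factor, was 2137, 19946 and 39669.5 with vehicle and 3579, 5026 and 6779.9 with MitoQ (log2 difference -1.63, SE 0.49, adjusted p = 0.022), with the same 5 libraries apart, and its call was lost without Tg-TAC 4 (adjusted p = 0.0593) and without Tg-TAC 5 (adjusted p = 0.0686). Ccn5, a secreted relative of Ccn2 that lacks its carboxy-terminal domain, went from 364, 1850.5 and 3665 to 295, 382 and 481, near its Tg-Sham median of 417 (log2 difference -1.94, SE 0.42, adjusted p = 0.00236). Ccn1, another member of that family, fell by 0.74 (adjusted p = 0.0162). Of the receptors, Agtr1a, the angiotensin II type 1a receptor, rose (log2 difference 1.01, adjusted p = 0.00502); Ace, which makes angiotensin II, fell (log2 difference -0.83, adjusted p = 0.0255). The contractile myofibroblast genes Cnn2 (-0.69) and Tagln (-0.96) fell on the log2 scale, the second with an adjusted p of 0.0465. Without Tg-TAC 5 or Tg-TAC-MQ 6 alone, Ccn1 no longer passed (adjusted p up to 0.0578). Ace lost its call in 4 of the 12 leave-out repeats (adjusted p up to 0.0848) and Tagln in 9 (adjusted p up to 0.133).

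**Figure D2:**
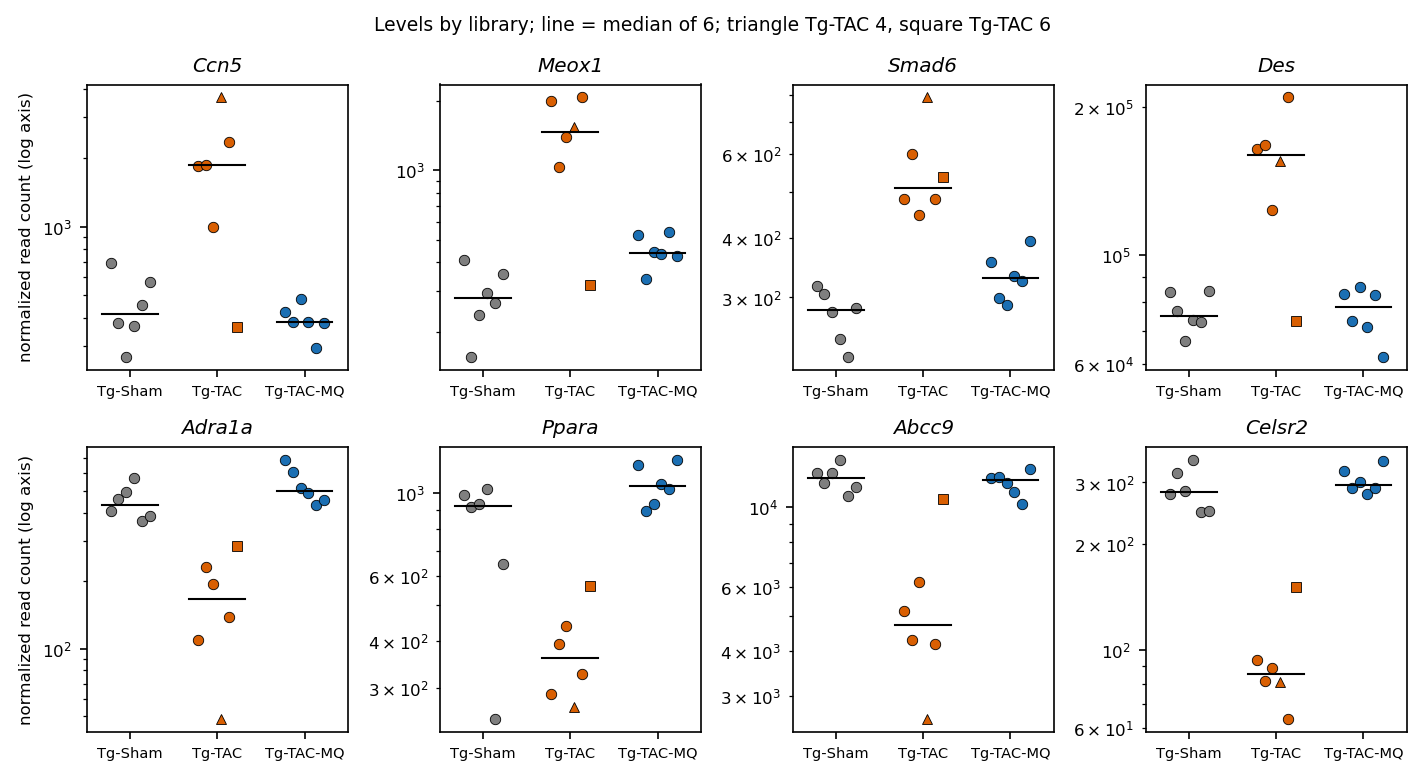
Normalised counts on a log axis of 8 genes in the Tg-Sham, Tg-TAC and Tg-TAC-MQ libraries; each point is a library, lines mark medians, the triangle is Tg-TAC 4 and the square Tg-TAC 6. The MitoQ libraries lie close together, and in Ccn5, Des and Abcc9 the square is the vehicle library at their level.

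The falls within the matrix and processing lists took in matricellular proteins, cross-linking enzymes and chains of the finer collagen networks. Comp, which links collagen fibrils, had normalised counts of 68.2, 2013 and 11325 with vehicle and 69.1, 109 and 231 with MitoQ (log2 difference -3.92, SE 1.00, adjusted p = 0.00753). The vehicle libraries other than Tg-TAC 6 lay between 1313 and 11325, all above the MitoQ libraries, and Tg-TAC 6 was at 68.2. Col8a2, a short-chain collagen, fell by 2.49 and Ltbp2, a microfibril protein related to the latent TGF-beta binding proteins, by 2.40 (adjusted p = 0.00873 and 0.0418). Sparc, a collagen-binding glycoprotein, went from 9296, 26066 and 30789 to 9676, 11954 and 14467 (log2 difference -0.90, SE 0.22, adjusted p = 0.00515). Postn, periostin, was 871, 15856 and 39954 with vehicle and 1942, 3655 and 5204 with MitoQ (log2 difference -1.81, SE 0.64, adjusted p = 0.0463). Its call was among the least stable, being lost in 11 of 12 leave-out repeats (adjusted p up to 0.129); without Tg-TAC 6 it passed. Loxl3, a lysyl oxidase that cross-links collagen and elastin, fell by 1.65 and Thbs4, a thrombospondin, by 2.22 on the log2 scale (adjusted p = 0.0127 and 0.0286). The elastic fibre genes Eln (-0.83), Fbln5 (-0.66) and Mfap5 (-1.40) and the proteoglycan genes Bgn (-1.17) and Dcn (-0.41) fell too. Tnxb, a tenascin, was the gene of the matrix list that rose (log2 difference 0.56, adjusted p = 0.0302), and Mmp12, macrophage elastase, the one that rose in the processing list (1.60, adjusted p = 0.0343). Without Tg-TAC 1 or Tg-TAC 5 alone, Eln no longer passed (adjusted p up to 0.0517). Without Tg-TAC 4, Tg-TAC 5 or Tg-TAC-MQ 3 alone, Fbln5 no longer passed (adjusted p up to 0.0869). Ltbp2 lost its call in 11 of the 12 leave-out repeats (adjusted p up to 0.112), Thbs4 in 5 (adjusted p up to 0.0756), Mfap5 in 4 (adjusted p up to 0.0729), Bgn in 4 (adjusted p up to 0.0803), Dcn in 9 (adjusted p up to 0.0989), Tnxb in 4 (adjusted p up to 0.115) and Mmp12 in 6 (adjusted p up to 0.086).

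Col1a1 and Col3a1, main chains of the fibrillar collagens, did not pass. Col1a1 had normalised counts of 4239, 16296 and 18927 with vehicle and 6708, 8274 and 9473 with MitoQ (log2 difference -0.55, SE 0.34, adjusted p = 0.259). For Col3a1 the log2 difference was -0.27 (adjusted p = 0.631) and for Fn1, fibronectin, -0.53 (adjusted p = 0.446). Both groups overlapped in all 3, with 4 of the 6 vehicle libraries above the MitoQ libraries in each. Cilp, made by cardiac fibroblasts, stood at -1.53 (adjusted p = 0.0836) and Timp1, an inhibitor of matrix metalloproteinases, at -0.77 (adjusted p = 0.555). Col11a1, a fibrillar chain outside the lists that was named after its value was seen, fell by 3.06 (adjusted p = 0.022). Col1a1 (log2 difference -0.86, adjusted p = 0.0391) and Cilp (log2 difference -2.28, adjusted p = 0.000928) passed with Tg-TAC 6 left out.

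How many of these genes passed depended on a pair of vehicle libraries. The mean log2 level of the matrix list was 10.40 to 10.75 in the MitoQ libraries, 12.15 in Tg-TAC 4, 9.46 in Tg-TAC 6 and 11.15 to 12.06 in the other 4 vehicle libraries. Tg-TAC 6 thus lay below every MitoQ library and the other 5 above. Without Tg-TAC 6, 31 of the 46 matrix genes, 23 of the 45 TGF-beta genes and 20 of the 34 processing genes fell; without Tg-TAC 4, 4, 9 and 4 did; without both, 27, 21 and 19 did. Over all 16275 genes tested, 2030 fell and 2414 rose without Tg-TAC 6, and 925 fell and 1241 rose without Tg-TAC 4. Of 18 fibroblast markers 3 fell and 1 rose, with 0 to 6 (without Tg-TAC 6) falls when 1 library was left out, and their mean log2 level was 10.70 to 11.49 with vehicle and 10.99 to 11.13 with MitoQ. Scara5, a marker of resting fibroblasts, rose (log2 difference 1.32, adjusted p = 0.00622), and Tcf21, a fibroblast transcription factor, fell (log2 difference -0.44, adjusted p = 0.0442). The part of fibroblast number in the matrix genes was not tested. Tcf21 lost its call in 8 of the 12 leave-out repeats (adjusted p up to 0.112).

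**Figure D3:**
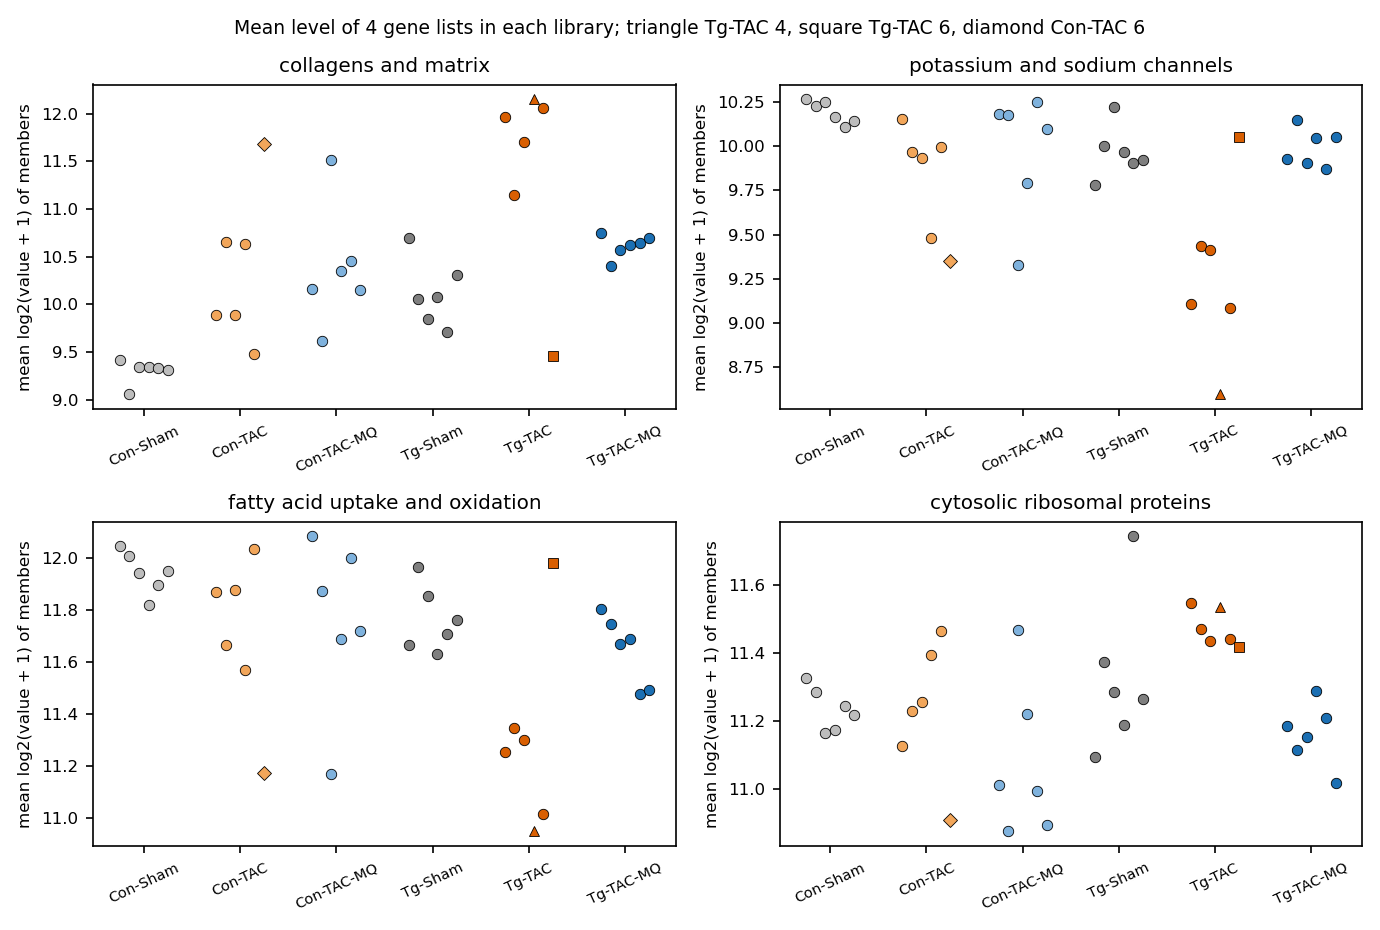
Mean log2(normalised count + 1) of 4 gene lists in each library of the 6 groups; the triangle and square are Tg-TAC 4 and Tg-TAC 6 and the diamond is Con-TAC 6. The MitoQ libraries of cSirt4-Tg mice span 10.40 to 10.75 for the matrix list, between Tg-TAC 6 at 9.46 and the remaining vehicle libraries.

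Of 28 fetal and hypertrophy genes, 6 fell and 3 rose (21.4% and 10.7%, beside 7.44% and 9.89% of all genes), with a median of -0.25. With 1 library left out the falls ran from 4 to 11 (without Tg-TAC 6). The natriuretic peptides, the usual markers of wall stress, did not pass. Des, desmin, the muscle intermediate filament, had normalised counts of 73422, 159671 and 209490.0 with vehicle and 61871, 78272 and 86181 with MitoQ, beside a Tg-Sham median of 75169 (log2 difference -0.90, SE 0.17, adjusted p = 0.000749). Tg-TAC 6 was the only vehicle library within the MitoQ range. Fhl1, a stretch-sensing LIM protein, went from 4102, 15542 and 22124 to 3650.1, 4714 and 5539.7 (log2 difference -1.42, SE 0.39, adjusted p = 0.0113). The LIM proteins Csrp3 (-0.43) and Lmcd1 (-0.65) and the actin regulator Enah (-0.71) fell as well. Mef2a, a muscle transcription factor, and Myh7b, a slow-type myosin gene, rose by 0.62 and 1.17 on the log2 scale (adjusted p = 0.0011 and 0.00637), and Nfatc2, a calcineurin target, by 0.34 (adjusted p = 0.03). Enah lost its call in 5 of the 12 leave-out repeats (adjusted p up to 0.0784) and Nfatc2 in 4 (adjusted p up to 0.0832).

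Nppa, atrial natriuretic peptide, had normalised counts of 3535, 180557 and 245197 with vehicle and 22320.2, 33350.4 and 45664 with MitoQ (log2 difference -1.49, SE 0.71, adjusted p = 0.144). In this gene 5 vehicle libraries lay above every MitoQ library and Tg-TAC 6 lay below every MitoQ library; without Tg-TAC 6 the log2 difference was -2.42 (adjusted p = 0.000908). Nppb, B-type natriuretic peptide, also had 5 vehicle libraries above every MitoQ library, and Tg-TAC 6 within their range (log2 difference -1.09, adjusted p = 0.0631); without Tg-TAC 6 the difference was -1.34 (adjusted p = 0.0156). Of the sarcomere isoforms that switch in overload, Myh6, the adult myosin heavy chain, was at 0.52 (adjusted p = 0.105). Myh7, the fetal form, stood at -0.32 (adjusted p = 0.661) and Acta1, skeletal actin, at 0.12 (adjusted p = 0.903). Ankrd1, a stretch-responsive titin-binding protein, was at -0.44 (adjusted p = 0.372). Sarcomere and Z-disc genes as a list stayed near the middle of all genes, with 2 of 26 higher (Nebl among them), 2 lower (Nexn and Synpo2) and a median of -0.01; without Tg-TAC 6, 6 were higher and 5 lower. Myh6 (log2 difference 0.69, adjusted p = 0.0155) and Ankrd1 (log2 difference -0.85, adjusted p = 0.0143) passed with Tg-TAC 6 left out.

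Potassium and sodium channel genes formed the list with the largest share of rises: 15 of 26 rose (57.7%, beside 9.89% of all genes) and none fell, with a median of 0.58. These channels repolarise the cardiac action potential or start it. Abcc9, the sulphonylurea receptor of ATP-sensitive potassium channels, had normalised counts of 2589, 4720.1 and 10557 with vehicle and 10206, 11881 and 12741 with MitoQ, beside 12029 in the median Tg-Sham library (log2 difference 1.21, SE 0.20, adjusted p = 0.000203). Tg-TAC 6 alone reached the MitoQ range. Kcnj12, an inward rectifier that sets the resting potential, went from 268, 308 and 475 to 515, 589 and 762 with no overlap (log2 difference 0.85, SE 0.15, adjusted p = 0.000485). The subunits of the acetylcholine-gated channel, Kcnj3 and Kcnj5, rose by 1.54 and 1.04, and the pacemaker channel gene Hcn4 by 1.63 (adjusted p = 0.00668, 0.00404 and 0.00893). Kcnv2, a silent subunit that modifies other channels, rose by 1.84, and its call was lost without Tg-TAC 4 (adjusted p = 0.0634) and without Tg-TAC 5 (adjusted p = 0.0587). Kcnd3, a channel of the transient outward current, rose by 0.77 (adjusted p = 0.002). Of the 26 genes, 9 rose without Tg-TAC 4 and 17 rose and 1 fell without Tg-TAC 6.

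Calcium-handling genes rose more often than they fell: 10 of 23 against 3 (43.5% and 13%, beside 9.89% and 7.44% of all genes), with a median of 0.33. With 1 library left out, rises ran from 7 (without Tg-TAC 4) to 12 (without Tg-TAC 6) and falls from 1 to 3 (without Tg-TAC 6). With the length trend removed, 5 of the 23 rose and 2 fell, and Ryr2 and Atp2a2 no longer passed. The fit of the 12 compared libraries alone had 7 rises and 3 falls. Atp2a2, the SERCA pump that refills the sarcoplasmic reticulum, had normalised counts of 107647, 218174 and 483560.0 with vehicle and 322178, 355584 and 382160.0 with MitoQ (log2 difference 0.72, SE 0.21, adjusted p = 0.0173). Tg-TAC 6 was above every MitoQ library and the other 5 vehicle libraries below; the call was lost without Tg-TAC 4 (adjusted p = 0.0652) and without Tg-TAC 5 (adjusted p = 0.0548). Pln, phospholamban, the inhibitor of that pump, rose with it (log2 difference 0.61, adjusted p = 0.0206), as did Ryr2, the release channel (log2 difference 0.71, adjusted p = 0.00835), and Cacna1c, the L-type channel (log2 difference 0.59, adjusted p = 0.00504). The call of Pln was lost without Tg-TAC 4 (adjusted p = 0.0754) and without Tg-TAC 5 (adjusted p = 0.0616). Atp2a2, Pln and Ryr2 were also the 3 of 15 cardiomyocyte markers that rose (20%, beside 9.89% of all genes). None of the 15 fell, and their median was 0.23. The mean log2 level of those markers was 15.63 to 16.72 with vehicle and 16.33 to 16.41 with MitoQ. The part of cardiomyocyte content in these rises was not tested. Camk2a, a subunit of calmodulin-dependent kinase, rose by 0.99 and Camk2d, the main cardiac subunit, by 0.33 (adjusted p = 0.00137 and 0.00244). Fkbp1b, which binds the release channel, fell by 1.00 (adjusted p = 0.0355). Sri, sorcin, which damps the release channel, fell with no overlap, from 1140.3, 1298 and 1604 to 906, 958 and 1037 (log2 difference -0.46, SE 0.10, adjusted p = 0.00161). Adra1a, an alpha-1 adrenergic receptor of cardiomyocytes, rose as well. Its normalised counts were 48.5, 165 and 286 with vehicle and 432, 502 and 688 with MitoQ, against a Tg-Sham median of 434 (log2 difference 1.84, SE 0.31, adjusted p = 0.000261). The groups did not overlap. Fkbp1b lost its call in 6 of the 12 leave-out repeats (adjusted p up to 0.0988).

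Genes of fatty acid use rose more often than they fell, among them several of their transcriptional regulators. Of 51 genes of fatty acid uptake and oxidation, 11 rose and 1 fell (21.6% and 1.96%, beside 9.89% and 7.44% of all genes), with a median of 0.32. Ppara, the nuclear receptor that switches on fatty acid oxidation, had normalised counts of 268, 361 and 562 with vehicle and 896, 1039.7 and 1226 with MitoQ, beside a Tg-Sham median of 924 (log2 difference 1.51, SE 0.28, adjusted p = 0.000655). All 6 MitoQ libraries lay above all 6 vehicle libraries. Ppargc1a, the coactivator PGC-1alpha that drives mitochondrial gene expression, went from 1029, 1474 and 2808 to 2358, 2646 and 2852 (log2 difference 0.75, SE 0.19, adjusted p = 0.00673). Tg-TAC 6 was the vehicle library within the MitoQ range. Ppargc1b rose by 0.72 and the nuclear receptor gene Esrrg by 0.58 (adjusted p = 0.0117 and 0.00106). Among the enzymes, Cpt1b, which admits fatty acids to mitochondria, went from 37.7, 55.8 and 120.2 to 96.4, 124 and 169 (log2 difference 1.08, SE 0.26, adjusted p = 0.00543). Acacb, which makes the inhibitor of that step, rose too (log2 difference 0.83, adjusted p = 0.000934), as did Acsl1, which activates fatty acids (log2 difference 0.70, adjusted p = 0.00625), and Lpin1, a phosphatidate phosphatase and coactivator (log2 difference 0.78, adjusted p = 0.000787). The trifunctional protein genes Hadha and Hadhb rose by 0.53 and 0.52 (adjusted p = 0.033 and 0.0314). Fabp4, a lipid carrier of endothelial and fat cells, fell (log2 difference -0.55, adjusted p = 0.0175). Ucp3, a mitochondrial carrier under PPAR control, stood at 1.26 (adjusted p = 0.112) and Pdk4, which shuts off pyruvate oxidation, at -0.16 (adjusted p = 0.828). Without Tg-TAC 6, 34 of the 51 rose, and with libraries scaled to equal totals of reads other than mitochondrial and 18S ones 19 did. When the 12 compared libraries were fitted alone, 9 rose and 1 fell. Without Tg-TAC 4 alone, Fabp4 no longer passed (adjusted p up to 0.0617). Hadha lost its call in 6 of the 12 leave-out repeats (adjusted p up to 0.114) and Hadhb in 6 (adjusted p up to 0.118). Ucp3 (log2 difference 1.52, adjusted p = 0.0483) passed with Tg-TAC 6 left out.

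The tricarboxylic acid cycle list had 6 of 34 higher (17.6%, beside 9.89% of all genes) and none lower, with a median of 0.21. Cs, citrate synthase, rose by 0.46 (adjusted p = 0.00928) and Got2, of the malate-aspartate shuttle, by 0.34 (adjusted p = 0.049, lost in 11 of 12 leave-out repeats with values up to 0.181). The count depended on which libraries were kept. Only 1 gene was higher when Tg-TAC 1 or Tg-TAC 4 was omitted, 2 for Tg-TAC 5 and 3 for Tg-TAC-MQ 1 or 2. Omitting Tg-TAC 6 gave 18 higher and 1 lower. The method mattered too: 12 were higher under the equal-totals scaling, 3 by edgeR, and 5 by DESeq2, which also had 2 lower. When the 12 compared libraries were fitted alone, none of the 34 was higher or lower. Of 26 genes of ketone and branched-chain amino acid use, 6 rose (23.1%, beside 9.89% of all genes) and none fell. Rises ran from 3 to 13 (without Tg-TAC 6) when 1 library was left out. Ppm1k, the phosphatase that activates branched-chain breakdown, rose by 0.94 (adjusted p = 0.00822). Bdh1, which oxidises the ketone body hydroxybutyrate, did not pass (log2 difference -0.51, adjusted p = 0.0747). Of 36 nuclear genes of complex I 1 fell and none rose, and of 42 of complexes III to V 1 fell and none rose, with medians of -0.01 and -0.03. The medians became 0.12 and 0.09 with the length trend removed and also without Tg-TAC 6, and -0.13 and -0.15 without Tg-TAC 4. Those that fell were Ndufb3 (-0.38) and Cox6a1, a subunit of cytochrome c oxidase (-0.58). Genes of mitochondrial shape rose in 8 of 26 cases and fell in 1 (30.8% and 3.85%, beside 9.89% and 7.44% of all genes), with a median of 0.15. With 1 library left out, 4 (without Tg-TAC 1 or Tg-TAC 4) to 11 (without Tg-TAC 6) rose. Dnm1l, the fission dynamin, had normalised counts of 3485, 3659 and 3942 with vehicle and 4549, 4745 and 4877 with MitoQ and did not overlap (log2 difference 0.35, SE 0.07, adjusted p = 0.0017). Opa1, which fuses inner membranes, rose by 0.48, and Bnip3, a receptor for mitophagy, fell by 0.68 (adjusted p = 0.00448 and 0.00473). Ndufb3 lost its call in 10 of the 12 leave-out repeats (adjusted p up to 0.103). Bdh1 (log2 difference -0.62, adjusted p = 0.0402) passed with Tg-TAC 4 left out. Bdh1 (log2 difference -0.66, adjusted p = 0.012) passed with Tg-TAC 6 left out.

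Since MitoQ is an antioxidant, the genes that make and remove reactive oxygen species were examined as lists of their own. Of 58 antioxidant and glutathione genes, 11 fell and 1 rose (19% and 1.72%, beside 7.44% and 9.89% of all genes), with a median of -0.17. In control TAC hearts 2 fell and none rose with MitoQ, with a median of -0.16. The median transcript length of the list was 2056 bases, against 3150 over all genes tested. With 1 library left out falls ran from 7 (without Tg-TAC 5) to 15 (without Tg-TAC 6) and rises from 1 to 5 (without Tg-TAC 6). Txn1, cytosolic thioredoxin, had normalised counts of 1454, 1560.3 and 1635 with vehicle and 1027, 1076 and 1184 with MitoQ, with no overlap (log2 difference -0.50, SE 0.10, adjusted p = 0.00102). The extracellular enzymes Gpx3 and Sod3 fell by 1.14 and 0.66, and Gpx1, the cytosolic glutathione peroxidase, by 0.64 (adjusted p = 0.0221, 0.0238 and 0.0126). Gpx8, a peroxidase of the endoplasmic reticulum, fell by 0.58 and Gss, which makes glutathione, by 0.53 (adjusted p = 0.000682 and 0.00592). Bach1, a repressor of haem oxygenase and other antioxidant genes, was the member that rose, with no overlap (log2 difference 0.57, adjusted p = 0.00817). Without Tg-TAC 1, Tg-TAC 4 or Tg-TAC 5 alone, Gpx3 no longer passed (adjusted p up to 0.0663). Sod3 lost its call in 4 of the 12 leave-out repeats (adjusted p up to 0.0776).

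Antioxidant genes of the mitochondrial matrix in this list included 3 that did not pass. Sod2, the matrix superoxide dismutase, was at 0.27 (adjusted p = 0.177), Prdx3, the matrix peroxiredoxin, at 0.25 (adjusted p = 0.175) and Txnrd2, the mitochondrial thioredoxin reductase, at -0.02 (adjusted p = 0.897). Cat, catalase, stood at -0.16 (adjusted p = 0.258). Of the targets of the oxidant sensor NRF2, Nqo1 fell by 0.37 (adjusted p = 0.0386, lost in 6 of 12 leave-out repeats with values up to 0.146). Hmox1, haem oxygenase 1, was at -0.48 (adjusted p = 0.389) and Gclc, which starts glutathione synthesis, at 0.03 (adjusted p = 0.908). Sod2 (log2 difference 0.41, adjusted p = 0.0137) and Prdx3 (log2 difference 0.37, adjusted p = 0.0226) passed with Tg-TAC 6 left out.

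Of 18 genes of enzymes that produce reactive oxygen species, 2 fell and 1 rose (11.1% and 5.56%, beside 7.44% and 9.89% of all genes). Without Tg-TAC 6, 5 fell and 2 rose. Maoa, an outer-membrane amine oxidase that releases hydrogen peroxide, fell (log2 difference -0.47, adjusted p = 0.0427, lost in 10 of 12 leave-out repeats with values up to 0.105), as did Rac1, a small GTPase of the NADPH oxidase (log2 difference -0.18, adjusted p = 0.0175). Nos2, inducible nitric oxide synthase, rose (log2 difference 0.91, adjusted p = 0.0384), with its lowest vehicle value in Tg-TAC 4. Nox4, an oxidase induced by TGF-beta, had normalised counts of 18.5, 298 and 975 with vehicle and 59.7, 101 and 123 with MitoQ (log2 difference -1.35, SE 0.58, adjusted p = 0.106). Again 5 vehicle libraries lay above every MitoQ library and Tg-TAC 6 below every MitoQ library. Cybb, the oxidase of phagocytes, was at 0.21 (adjusted p = 0.599). Nos2 lost its call in 6 of the 12 leave-out repeats (adjusted p up to 0.122). Nox4 (log2 difference -2.06, adjusted p = 0.00112) passed with Tg-TAC 6 left out.

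Mitochondrial stress is relayed to the nucleus by the integrated stress response, in which the transcription factor ATF4 induces amino acid synthesis genes. Of 34 genes of this response, 10 fell and 1 rose (29.4% and 2.94%, beside 7.44% and 9.89% of all genes), with a median of -0.34. The promoters of 3 members that changed hold the letters of the composite ATF4 element, and they are printed here because their genes moved in different directions. The element was searched as TGATGNAA on both strands of RefSeq windows of 300 bases, from 250 before to 50 after the gene start (GRCm38.p6). It was present in 9 of the 31 list genes that matched a window (29%), in 3 of the 9 matched genes that changed, and in 1304 of all 32851 windows (3.97%). Capitals mark the element, which in Vldlr and Nupr1 lies on the opposite strand. The windows are chr6:7693160-7693459 on the minus strand for Asns, chr19:27216770-27217069 on the plus strand for Vldlr and chr7:126625421-126625720 on the minus strand for Nupr1. The element begins 23, 200 and 110 bases before the start, in that order.
Asns: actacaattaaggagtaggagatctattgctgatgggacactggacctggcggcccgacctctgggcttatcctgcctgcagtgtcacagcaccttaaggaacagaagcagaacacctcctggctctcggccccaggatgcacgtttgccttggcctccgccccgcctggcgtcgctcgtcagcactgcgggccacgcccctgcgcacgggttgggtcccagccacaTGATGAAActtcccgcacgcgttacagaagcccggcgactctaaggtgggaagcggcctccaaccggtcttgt
Vldlr: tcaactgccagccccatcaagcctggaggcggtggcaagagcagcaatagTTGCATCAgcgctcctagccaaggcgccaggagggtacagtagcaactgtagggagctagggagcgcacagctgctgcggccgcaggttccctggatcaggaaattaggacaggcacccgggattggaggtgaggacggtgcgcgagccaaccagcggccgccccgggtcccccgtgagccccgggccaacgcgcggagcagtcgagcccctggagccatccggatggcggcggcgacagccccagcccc
Nupr1: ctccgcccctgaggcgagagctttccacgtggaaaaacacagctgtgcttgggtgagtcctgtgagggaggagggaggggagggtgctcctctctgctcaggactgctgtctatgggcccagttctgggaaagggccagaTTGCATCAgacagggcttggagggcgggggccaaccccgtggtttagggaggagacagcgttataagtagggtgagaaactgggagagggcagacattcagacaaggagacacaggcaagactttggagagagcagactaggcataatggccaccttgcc

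Atf4 itself had normalised counts of 1638, 2443 and 2948 with vehicle and 1237, 1611 and 2001 with MitoQ (log2 difference -0.56, SE 0.13, adjusted p = 0.00368). The groups overlapped through Tg-TAC 6, the lowest vehicle library. Atf5, its relative and target, went from 1319, 1750.4 and 2718 to 918, 1148 and 1299.7 with no overlap (log2 difference -0.63, SE 0.15, adjusted p = 0.00431). Asns, asparagine synthetase, was 165, 252 and 363 with vehicle and 144, 159 and 191 with MitoQ (log2 difference -0.63, SE 0.20, adjusted p = 0.0268), and its call was lost in 5 of 12 leave-out repeats (adjusted p up to 0.0803). Nupr1, a stress-induced transcriptional regulator, had 55.5, 299.6 and 875 with vehicle and 62.4, 97.6 and 119 with MitoQ (log2 difference -1.72, SE 0.41, adjusted p = 0.00479); its highest values were in Tg-TAC 4 and Tg-TAC 5 and its lowest in Tg-TAC 6. Vldlr, the very low density lipoprotein receptor, was the member that rose, from 6117, 7209.9 and 12060.4 to 10532, 12279 and 13690.3 (log2 difference 0.69, SE 0.15, adjusted p = 0.00272). Mthfd2, an enzyme of mitochondrial folate metabolism, fell by 1.18 and Ddit3, or CHOP, by 0.41 (adjusted p = 0.0296 and 0.0326). Gdf15, a circulating signal of mitochondrial stress, did not pass (log2 difference -1.22, adjusted p = 0.33); it was at 19.7 in Tg-TAC 6 and between 920.4 and 2944 in the other vehicle libraries. Without Tg-TAC 6, 18 of the 34 fell, and without Tg-TAC 4 or Tg-TAC-MQ 2, 6 did. Mthfd2 lost its call in 5 of the 12 leave-out repeats (adjusted p up to 0.0795) and Ddit3 in 5 (adjusted p up to 0.104). Gdf15 (log2 difference -2.22, adjusted p = 0.0154) passed with Tg-TAC 6 left out.

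Glycolytic genes fell more often than they rose. Of 32, 10 fell and 4 rose (31.2% and 12.5%, beside 7.44% and 9.89% of all genes), with a median of -0.18. With 1 library left out the rises ran from 2 to 8 (without Tg-TAC 6). Ldha, which makes lactate, fell with no overlap between groups, from 15792, 18448 and 20914 to 12915, 13879.5 and 14886 (log2 difference -0.41, SE 0.07, adjusted p = 0.000426). Pgk1 (-0.42), Gapdh (-0.43) and Eno1 (-0.58), enzymes of the lower pathway, fell too. Slc2a1, the basal glucose transporter that rises in overload, fell (log2 difference -0.61, adjusted p = 0.0477, lost in 10 of 12 leave-out repeats with values up to 0.146). Slc2a4, the insulin-sensitive transporter (log2 difference 0.57, adjusted p = 0.0262), and Hk2, the muscle hexokinase (log2 difference 0.52, adjusted p = 0.0049), rose, as did Pfkfb2 (0.66) and Gfpt1 (0.30). Without Tg-TAC 4, Tg-TAC 5 or Tg-TAC-MQ 1 alone, Slc2a4 no longer passed (adjusted p up to 0.0984). Gfpt1 lost its call in 11 of the 12 leave-out repeats (adjusted p up to 0.104).

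Proteasome subunits fell by small and even amounts: 21 of 31 fell (67.7%, beside 7.44% of all genes) and none rose. All 31 differences were negative, with a median of -0.28. Psma5, a subunit of the core, had normalised counts of 1555, 1626 and 1759 with vehicle and 941, 1135 and 1206 with MitoQ (log2 difference -0.57, SE 0.09, adjusted p = 0.00023). Psmd13, of the regulatory particle, fell likewise (log2 difference -0.42, adjusted p = 0.000122). The mean log2 level of the list was 11.17 to 11.42 with vehicle and 10.92 to 11.09 with MitoQ, so the groups did not overlap. Of 78 cytosolic ribosomal protein genes, 43 fell (55.1%, beside 7.44% of all genes) and none rose, with a median of -0.30. The list level was 11.42 to 11.55 against 11.02 to 11.29, and 11.10 to 11.74 in Tg-Sham libraries. Gene by gene, the groups did not overlap in 12 of the 31 proteasome and 37 of the 78 ribosomal genes, beside 6.57% of all genes tested. Rpl22 (-0.35) and Rpl41 (-0.56) were among them; ribosomal protein genes share reads with many processed pseudogenes, so single values are uncertain. Both lists are of short transcripts, and with a trend on transcript length removed 11 proteasome and 12 ribosomal genes fell. With 1 library left out, 22 (without Tg-TAC-MQ 6) to 46 (without Tg-TAC 6 or Tg-TAC-MQ 4) ribosomal genes fell. Con-TAC 6, a vehicle library whose name carries the number 20, had levels of 11.06 and 10.91 for the proteasome and ribosomal lists, below the other 5 Con-TAC libraries. It stood apart from them in many other lists too.

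The genes with the largest changes among those where each library of a group lay on one side of the other group's mean were of mixed kinds. This ranking took genes with a mean of at least 100 over the 12 libraries and left out predicted genes. Of the 10 with the largest rises, Nt5c1a, a cytosolic nucleotidase of muscle, rose most (35.9, 70.6 and 265 with vehicle and 241, 335 and 389 with MitoQ, log2 difference 1.93, SE 0.41, adjusted p = 0.00191). Lvrn, a membrane aminopeptidase, and Col6a6, a chain of collagen VI, rose by 1.91 and 1.82. Celsr2, a cadherin of planar cell polarity, had the clearest separation. Its normalised counts were 63.3, 85.1 and 151 with vehicle and 277, 295 and 345 with MitoQ, with no overlap and a Tg-Sham median of 282 (log2 difference 1.75, SE 0.19, adjusted p = 7.06e-07). Hmcn2, a large basement membrane protein, rose without overlap as well, from 77.2, 646 and 838 to 1221, 1470.5 and 2325 (log2 difference 1.71, SE 0.37, adjusted p = 0.00256). Scd4, a stearoyl-CoA desaturase, Zbed6, a transcription factor derived from a transposon, and Cspg4b rose by 1.64, 1.64 and 1.63. Adra1a and Ppara complete the 10. Zbed6 lost its call in 2 of the 12 leave-out repeats (adjusted p up to 0.059).

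Among the 10 largest falls of that kind, Gadd45g, a growth arrest gene, was 234, 511 and 796 with vehicle and 148, 171 and 219.8 with MitoQ, without overlap (log2 difference -1.47, SE 0.31, adjusted p = 0.002). Uchl1, a ubiquitin hydrolase, fell by 1.91, Pyroxd2 by 1.54, Panx1, a channel that releases ATP, by 1.53 and Sox9, a cartilage and fibrosis transcription factor, by 1.28. Inhba was described with the ligands. Rn18s-rs5, Mir6236 and Lars2, also among the 10, are described next.

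Ribosomal RNA took a smaller share of the reads in every MitoQ library. Rn18s-rs5, a copy of the 18S gene, took 0.591 to 1.33% of reads with MitoQ and 2.38 to 11.8% with vehicle (log2 difference -2.43, SE 0.38, adjusted p = 0.000179). Lars2, the mitochondrial leucyl-tRNA synthetase gene, which contains a stretch resembling ribosomal RNA, took 0.158 to 0.379% against 0.522 to 2.79%. Mir6236, a locus that resembles ribosomal RNA, fell by 2.44, and Rn7sk, the 7SK RNA that lacks a poly(A) tail, by 1.87 (adjusted p = 0.000426 and 0.00272). The groups overlapped in none of these 4 loci. In the control hearts the 18S locus took 0.636 to 1.39% with MitoQ and 1.55 to 9.22% with vehicle, and in Tg-Sham hearts 3.37 to 9.69%. Mitochondrially encoded genes took 19.5 to 22.6% of reads with MitoQ and 13.1 to 19.6% with vehicle. The part of this difference in library make-up in the other changes was not tested.

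Markers of other cells were followed because Tg-TAC 4 stood out in them. Adipocyte markers had a mean log2 level of 11.78 in Tg-TAC 4, 5.24 to 8.00 in the other vehicle libraries and 5.43 to 7.37 with MitoQ, and none of 12 changed. Lymphocyte markers were at 9.21 in Tg-TAC 4, 3.14 to 4.43 in the other vehicle libraries and 3.77 to 4.99 with MitoQ, and none of 11 changed (2 fell without Tg-TAC 6). The count models differed from limma here: edgeR called 8 adipocyte and 7 lymphocyte markers lower (medians -3.36 and -2.57), and DESeq2 called 4 and 3. Neither called any higher. Outside Tg-TAC 4 the vehicle and MitoQ ranges of both lists overlapped widely. Endothelial markers, at 10.20 to 10.50 and 10.31 to 10.44, had no member of 24 that changed. Without Tg-TAC 6, 4 were higher and 1 lower, where 2414 and 2030 of all 16275 genes were. Of 33 macrophage markers 1 rose and 2 fell (3.03% and 6.06%, beside 9.89% and 7.44% of all genes). Among these markers Mmp12 rose, and Cbr2 (-0.50) and C1qa (-0.53), markers of resident macrophages, fell. Without Tg-TAC 6, 9 of them fell and 1 rose, and DESeq2 called 7 lower and 1 higher. The calls of the last pair were unstable: that of Cbr2 was lost in 7 of 12 leave-out repeats (adjusted p up to 0.114) and that of C1qa in 11 of 12 leave-out repeats (adjusted p up to 0.139). Ccr2, of recruited monocytes, was at 0.51 (adjusted p = 0.501) and Lyve1, of resident macrophages, at -0.20 (adjusted p = 0.654). Of 38 cytokines and chemokines, 4 fell (10.5%) and 1 rose (2.63%), with 2 to 7 (without Tg-TAC 6) falls when 1 library was left out. The chemokine genes Cx3cl1, Cxcl16 and Ccl21a fell by 1.00, 0.55 and 0.63 (adjusted p = 0.0111, 0.0301 and 0.0352). Mif, a macrophage inhibitory factor, fell by 0.74 and Ctf1, cardiotrophin, rose by 0.86 (adjusted p = 0.002 and 0.0103). Cxcl16 lost its call in 5 of the 12 leave-out repeats (adjusted p up to 0.0899) and Ccl21a in 7 (adjusted p up to 0.0984).

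Of 13 genes listed as Schwann cell markers, 4 rose and 1 fell (30.8% and 7.69%, beside 9.89% and 7.44% of all genes), with a median of 0.61. The median was 0.29 by edgeR and 0.28 by DESeq2, and 5 of the 13 limma differences were negative. Sox10, the glial transcription factor, had normalised counts of 0, 17.3 and 49.7 with vehicle and 40.6, 51.5 and 90.1 with MitoQ (log2 difference 2.05, SE 0.51, adjusted p = 0.0061), and Tg-TAC 4 held no read of it. Kcna1, an axonal potassium channel, was 4.62, 10.1 and 42.8 with vehicle and 49.0, 53.3 and 108 with MitoQ, without overlap (log2 difference 2.16, SE 0.42, adjusted p = 0.000845). Cdh19, a glial cadherin, and Gfra3, a neurotrophic receptor, rose by 0.84 and 1.46, and Pmp22, a myelin protein also made by other cells, fell by 0.52 (adjusted p = 0.00975, 0.0258 and 0.0396). Sox10 and Kcna1 have low counts. Without Tg-TAC 4 or Tg-TAC-MQ 6 alone, Gfra3 no longer passed (adjusted p up to 0.0854). Pmp22 lost its call in 9 of the 12 leave-out repeats (adjusted p up to 0.111).

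Of 26 p53 target and apoptosis genes 5 fell (19.2%, beside 7.44% of all genes), among them Bax, which opens the mitochondrial outer membrane (log2 difference -0.51, adjusted p = 0.00689), and Phlda3, an AKT inhibitor (log2 difference -0.86, adjusted p = 0.00733); Bcl2l11, or BIM, rose (log2 difference 0.57, adjusted p = 0.0463). Of 25 immediate early genes 3 fell (12%, beside 7.44% of all genes) and none rose: Ppp1r15a (-0.55), Ier2 (-0.50) and Maff (-1.03). Without Tg-TAC 6, 6 of the 25 fell. Of 40 interferon-stimulated genes 4 fell (10%, near the 7.44% of all genes) and none rose. Those that fell were Ifi27 (-0.47), Ifi27l2a (-1.47), Oas3 (-1.98) and Ifit3 (-1.17). With 1 library left out, 0 (without Tg-TAC 4) to 7 (without Tg-TAC 6) fell. Of 77 mitochondrial ribosomal protein genes 6 fell (7.79%, near the 7.44% of all genes) and none rose. Their median was -0.05, and 0.03 with the length trend removed. With 1 library left out, 1 (without Tg-TAC-MQ 2) to 9 (without Tg-TAC 4) fell and at most 2 rose. Of 21 genes of sirtuins and NAD enzymes 2 rose and 1 fell (9.52% and 4.76%, shares below those of all genes). Without Tg-TAC 6, 4 rose and 4 fell, where 2414 and 2030 of all 16275 genes did. Parp1, which consumes NAD in DNA repair, rose (log2 difference 0.37, adjusted p = 0.00255), as did Nadk2, the mitochondrial NAD kinase (log2 difference 0.76, adjusted p = 0.0206), and Sirt6 fell (log2 difference -0.38, adjusted p = 0.0258). Of 20 smooth muscle and pericyte markers 3 rose and 3 fell (15% each, beside 9.89% and 7.44% of all genes), with 1 to 5 (without Tg-TAC 6) falls when 1 library was left out; Myocd, the smooth muscle and cardiac coactivator, rose without overlap, from 709.6, 777 and 917 to 1044, 1255 and 1617 (log2 difference 0.70, SE 0.13, adjusted p = 0.000662). Without Tg-TAC 4, Tg-TAC 5 or Tg-TAC-MQ 2 alone, Maff no longer passed (adjusted p up to 0.0583). Without Tg-TAC 4 alone, Ifi27 and Ifi27l2a no longer passed (adjusted p up to 0.0658 and 0.0681, in that order). Without Tg-TAC 1, Tg-TAC 4 or Tg-TAC 5 alone, Nadk2 no longer passed (adjusted p up to 0.0694). Bcl2l11 lost its call in 9 of the 12 leave-out repeats (adjusted p up to 0.134), Oas3 in 7 (adjusted p up to 0.134), Ifit3 in 10 (adjusted p up to 0.133) and Sirt6 in 4 (adjusted p up to 0.0807).

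The same 12 libraries were set against the response to TAC in control mice, which shares no library with them. In control hearts 863 genes changed with TAC (5.30% of those tested), 431 higher and 432 lower (2.65% each). Of the 431 genes that TAC raised in control hearts, 402 had a negative difference with MitoQ in cSirt4-Tg hearts; 162 fell (37.6%, against 7.44% of all genes) and none rose. Of the 432 genes that TAC lowered, 401 had a positive difference, 266 rose (61.6%, against 9.89%) and 7 fell. Medians were -0.47 and 0.45. Without Tg-TAC 4 the counts were 131 and 240, without Tg-TAC 6 276 and 310, and with the length trend removed 106 of 431 and 151 of 421. Without Con-TAC 6 the TAC lists themselves became 347 and 506 genes, of which 124 fell and 322 rose with MitoQ.

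**Figure D4:**
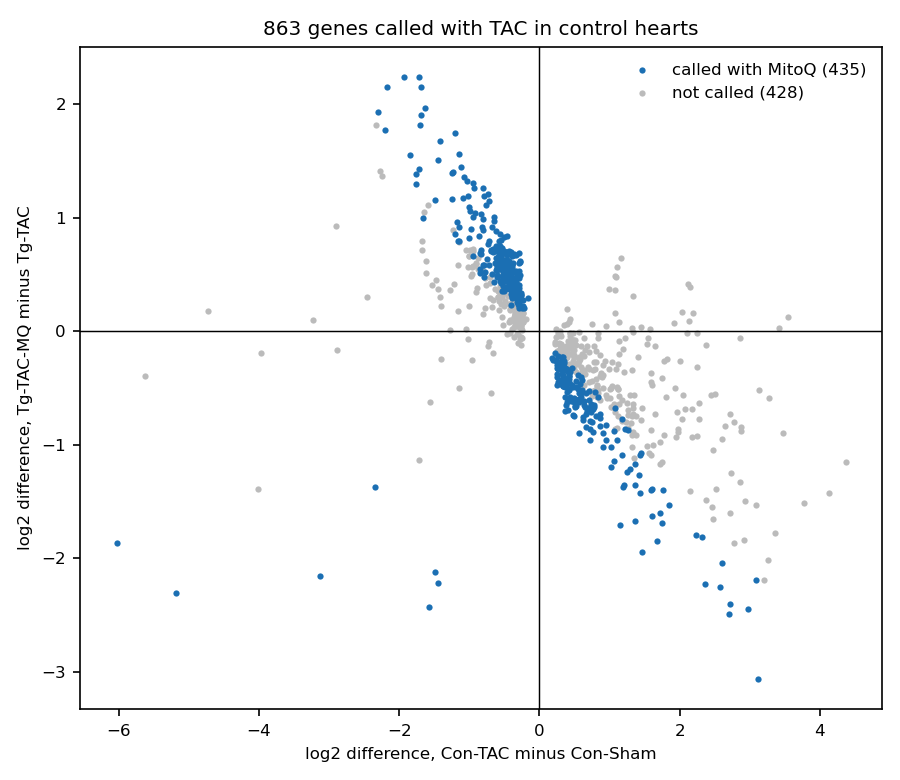
Each point is a gene that changed with TAC in control hearts, with its log2 difference Con-TAC minus Con-Sham on the horizontal axis and Tg-TAC-MQ minus Tg-TAC on the vertical axis; the 12 libraries of one axis are not those of the other. Of 431 genes to the right of 0, 402 lie below the horizontal line, and of 432 to the left 401 lie above it.

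Against cSirt4-Tg sham hearts, MitoQ-treated TAC hearts differed in 21 genes (0.129%), all lower, and vehicle-treated TAC hearts in 2716 (16.7%, with 7.91% higher and 8.77% lower). These comparisons share libraries with each other and with that of MitoQ, so no overlap is given. The 21 included the ribosomal or noncoding RNA loci Rn18s-rs5, Rn7sk and Malat1. A gene that did not pass is not thereby at its sham level. With MitoQ, 43 of 46 matrix genes lay above sham (median difference 0.51), as did 38 of 45 TGF-beta genes (0.17). Of complex I genes 2 of 36 lay above sham (median -0.19), and of channel genes 12 of 26 (-0.03). Over all genes tested 52.1% did. None of these list members passed.

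In control hearts with TAC, 526 genes changed with MitoQ (3.23%), 313 higher (1.92%) and 213 lower (1.31%). The count of 526 ran from 48 without Con-TAC 4 to 1756 without Con-TAC 6. That comparison shares no library with the one in cSirt4-Tg hearts. In both, 317 genes changed, all in the same direction, which is 11.2% of the genes that changed in cSirt4-Tg hearts and 60.3% of those in control hearts. Of the 1610 genes that rose in cSirt4-Tg hearts 1491 had a positive difference in control hearts (median 0.26), and of the 1211 that fell 1099 had a negative one (median -0.19). The MitoQ libraries of both genotypes are numbered 20 or 21, so this agreement cannot tell MitoQ and number apart. With the length trend removed, 59 genes changed in control hearts, 45 of them among the 526. Ppara stood at 1.09 in control hearts, Celsr2 at 0.69, Rn18s-rs5 at -1.36 and Gadd45g at -0.02. The median of the matrix list was 0.09 in control hearts against -0.58, and that of the channel list 0.21 against 0.58. No gene had a MitoQ difference that itself differed between genotypes at an adjusted p of 0.05 by limma, with 1377 at an unadjusted p under 0.05, none by edgeR and 16 by DESeq2. Other limma fits gave up to 159 such genes, that number with array weights, and 23 without Tg-TAC 6. The smallest adjusted p, 0.0612, belonged to mt-Co3 and its nuclear copies Gm10925, Gm28661, Gm28437 and Gm28439, whose reads cannot be split with certainty.

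Transcript length moved with direction. The genes that rose had a median length of 5450 bases, those that fell 2140, and all genes tested 3150. In the shortest decile of genes the median log2 difference was -0.121 and in the longest 0.28; in control hearts these were -0.243 and 0.264. The slope of level on log length was 0.022 to 0.066 in the MitoQ libraries and -0.102 to 0.064 in the vehicle libraries. In control hearts it was 0.025 to 0.089 with MitoQ, and 0.097 in Con-TAC 6, the vehicle library numbered 20, against -0.131 to -0.003 in the other 5. With the length trend removed from each library, 1774 genes changed with MitoQ in cSirt4-Tg hearts, 1406 of them among the 2821. After this correction 11 genes of the matrix list fell and 11 of the fatty acid list rose, as did 10 of the channel list and 5 of the calcium list. Among single genes, Ryr2 (adjusted p = 0.193), Atp2a2 (adjusted p = 0.0757), Nqo1 (adjusted p = 0.262) and Asns (adjusted p = 0.0861) no longer passed. The part of length in the other changes was not tested beyond this correction.

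**Figure D5:**
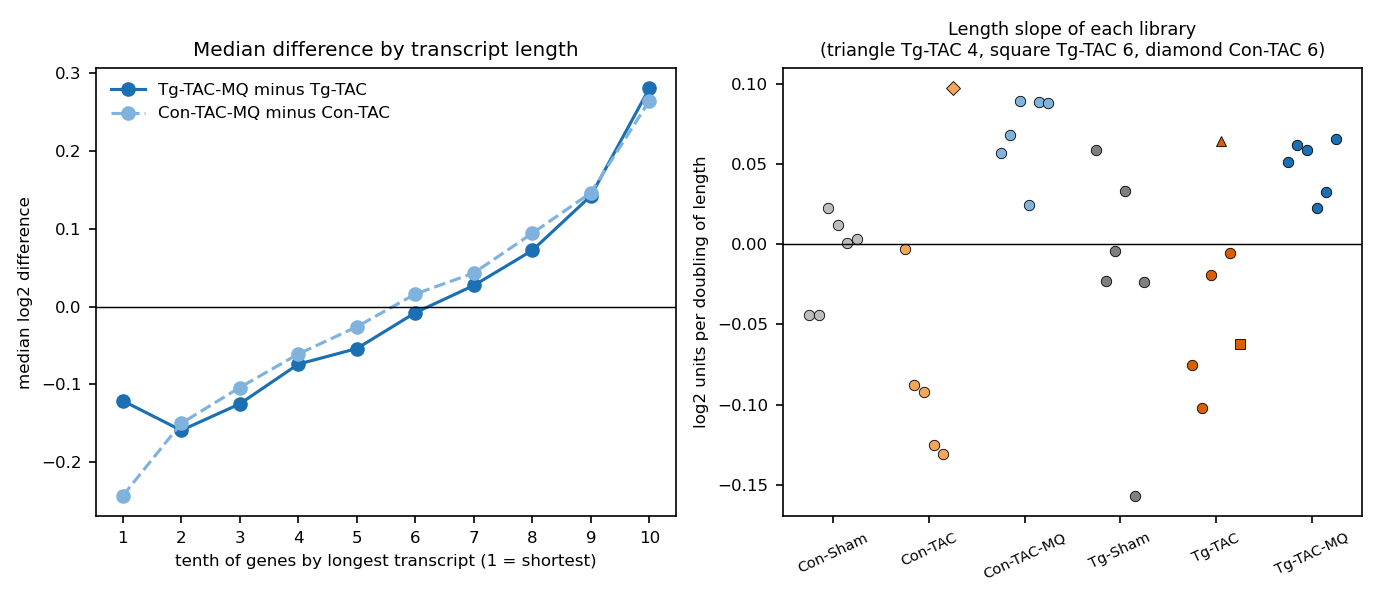
Left, median log2 difference with MitoQ in cSirt4-Tg and control hearts by decile of transcript length. Right, slope of level on log length in each library by group. Medians run from -0.121 in the shortest decile to 0.28 in the longest in cSirt4-Tg hearts, and the MitoQ libraries have slopes of 0.022 to 0.066.

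Among the 1610 genes that rose with MitoQ, Tg-TAC 6, numbered 29, was the highest vehicle library in 58.9%, beside 29.1% over all genes. It was the lowest in 52.9% of the 1211 that fell, beside 28.8%. Con-TAC 6, numbered 20, is the vehicle library that shares a number with MitoQ libraries. Its matrix level was 11.68, above the 9.47 to 10.65 of the other 5 Con-TAC libraries and the 10.40 to 10.75 of the MitoQ-treated cSirt4-Tg libraries. Its channel level was 9.35, below their 9.48 to 10.16 and 9.87 to 10.15. It lay outside the other 5 Con-TAC libraries in many more lists, such as interferon-stimulated genes (9.64 against 7.42 to 7.58) and complex I (11.60 against 12.29 to 12.68). In others, such as calcium handling (11.67 against 11.61 to 12.03), it lay among them.

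A model term for 3 classes of the name number could be fitted only through Con-TAC 6, so its values rest on that 1 library, assumed to vary like the others. With the term 2551 genes changed with MitoQ, 728 of them among the 2821, and the median changed sign in 12 of 46 lists. Proteasome and ribosomal genes then had 1 fall and 1 rise each. Of complex I genes 25 of 36 rose, of complexes III to V 25 of 42 and of mitochondrial ribosomal proteins 34 of 77, with none lower, and 35 of 40 interferon-stimulated genes fell. The stress response list had 4 falls and 5 rises, the Schwann list 2 falls and 1 rise, and the calcium list 1 fall and 5 rises. In the matrix list 24 genes fell, in the TGF-beta list 22 and in the processing list 14; 27 fatty acid and 11 channel genes rose. Of the genes that TAC raised in control hearts 166 fell, and of those it lowered 72 rose.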

How the data were processed

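Frozen hearts gave RNA through the RNeasy Fibrous Tissue Mini kit, and libraries were made from 100 ng of total RNA with the NEB Next Ultra II Directional kit, per the labels' protocols. Trim Galore, STAR and the mm39 build are named in the submitters' processing notes; the read counter and the normalisation were not given in the sources used here. In the table, as deposited, is a signal per gene and library: read counts divided by 1 factor per library, since 100% of values were whole reads within 0.01 read once multiplied by it. The count models were run on these recovered reads.

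Groups came from the sample titles. Values were tested as log2(value + 1) with limma 3.58.1 (trend and robust options, R 4.3.3), 1 mean per group over all 36 libraries and 30 residual degrees of freedom, so that the 6 groups share 1 estimate of spread. Genes that reached a value of 10 in 6 or more libraries were kept (16275 of 25626), and p-values were adjusted by Benjamini-Hochberg over all of them. A fold change on this scale understates the change of low genes. The fit was also run on simulated counts, and the outcome is not reported here. Sirt4 was tested by an exact permutation test. No pair of libraries within the Tg-TAC group or within the Tg-TAC-MQ group agreed within sampling noise, and other pairs were not examined. The labels do not say that libraries of a group are separate mice, so p-values measure the spread between libraries.

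Alternatives were pseudocounts of 0.5 and 10, other filters, TMM, equal-totals and equal-median scaling, array weights, a replicate block, name-number classes, fewer libraries, edgeR 4.0.16, DESeq2 1.42.0 and leaving out each library; the length correction (GENCODE transcript lengths, GRCm38, matched by gene) and the joint omission of Tg-TAC 4 and Tg-TAC 6 were added after seeing the data. Promoter windows are from RefSeq, matched by symbol. Named genes were a preset set, up to 10 rises and 10 falls with the largest difference, a mean of at least 100 over the 12 libraries and each library on one side of the other group's mean, the 2 called genes with the smallest adjusted p of each of 46 lists, and the 5 leading interaction genes; other members were named after their values were seen, and some genes that these rules name are not reported here. The members and lists were chosen with earlier results of these data known.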

Additional observations from a re-analysis of the deposited data

Results flagged for a closer look

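For each gene named in the text, each gene list and each library measure, the highest or lowest of 6 libraries was compared with its nearest neighbour, and the gap was divided by the whole range. A ratio above Dixon's critical value marks a library that stands apart. Of 464 groups examined 64 had such a ratio (13.8%), where chance gives about 5%; 38 were in Tg-TAC 6, 11 in Tg-TAC 4 and 10 in the MitoQ group. The ratio is in brackets after each name, on log2 levels. Genes share libraries, so these are not independent.

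Tg-TAC 6 was the lowest vehicle library, apart from the others, in the matrix and TGF-beta genes Ltbp2 (0.698), Thbs4 (0.739), Postn (0.732), Mfap5 (0.655), Sparc (0.74), Bgn (0.739), Ccn2 (0.649), Meox1 (0.628), Tgfb2 (0.736), Tgfb3 (0.758), Cilp (0.751) and Timp1 (0.678). It was also lowest in Nppa (0.774), Ankrd1 (0.822), Enah (0.706), Gpx1 (0.67), Gpx8 (0.734), Hmox1 (0.746), Maoa (0.758), Mthfd2 (0.744), Gdf15 (0.766), Pmp22 (0.735), C1qa (0.638) and Phlda3 (0.707). By list, it was lowest in the mean level of fetal and hypertrophy genes (0.64), the mean level of collagens and matrix (0.629), the mean level of reactive oxygen producing enzymes (0.704), the mean level of integrated and mitochondrial stress response (0.652) and the mean level of atrial markers (0.664). It was the highest vehicle library in Mef2a (0.786), Cacna1c (0.727), Acacb (0.798), Acadsb (0.71), Ppm1k (0.66), Vldlr (0.676), Kcnd3 (0.791), Nebl (0.963) and Parp1 (0.702), genes of fuel use, calcium entry and other functions.

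Tg-TAC 4 was the lowest vehicle library in Hmcn2 (0.805), Tnxb (0.66), Csrp3 (0.804), Nos2 (0.76) and Sox10 (0.639). It was the highest in Mir6236 (0.777) and Ccr2 (0.634) and in the percent of reads at Rn18s-rs5 (0.663), the mean level of lymphocyte markers (0.788), the mean level of neutrophil and mast cell markers (0.73) and the mean level of mesothelial and epicardial markers (0.725). Other vehicle libraries stood apart in single measures: Tg-TAC 1 was highest in Nfatc2 (0.707) and the mean level of erythroid markers (0.784), Tg-TAC 2 in the total of reads (0.658), Tg-TAC 3 in the mean level of smooth muscle and pericyte markers (0.667) and Tg-TAC 5 in Synpo2 (0.682).

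Within the MitoQ group, Tg-TAC-MQ 2 was lowest in Mfap5 (0.656), Tgfb1 (0.683), Mthfd2 (0.675) and the mean level of cell cycle and mitosis (0.642). Tg-TAC-MQ 6 was highest in Kcna1 (0.643), Gfra3 (0.645), Nfatc2 (0.657) and the mean level of smooth muscle and pericyte markers (0.728). Tg-TAC-MQ 4 was highest in the mean level of atrial markers (0.705) and Tg-TAC-MQ 1 in Pyroxd2 (0.817).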

How the results depend on the processing

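Among the limits are the 2 vehicle libraries at the ends of the group, the library name number, which goes with MitoQ, and the trend on transcript length. Directions of the lists led with held under 5 other scalings or count models, in which the channel, matrix, TGF-beta, ribosomal and proteasome medians kept their sign. A depth of 14.8 M reads in Tg-TAC 4 limits low genes such as Sox10.

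In cSirt4-Tg hearts the 2821 genes that changed with MitoQ became 5761 with array weights. They became 1774 with the length trend removed and 1589 with the length trend removed and a replicate block. Leaving out 1 library gave 2055 to 4444, the highest without Tg-TAC 6. The other alternatives gave 2094 to 3657. The share of rises among changed genes was 57.1%, against 67.8% with the equal-totals scaling and 46.7% by DESeq2. In control hearts the 526 genes became 323 with no filter, 2870 with array weights, 225 with the name-number term, 26 with only the compared libraries, 298 with only the 24 TAC libraries, 826 by DESeq2, 59 with the length trend removed and 64 with that and the block; leaving out 1 library gave 48 (without Con-TAC 4) to 1756 (without Con-TAC 6). The interaction, with 0 genes, had 4 with the equal-totals scaling, 159 with array weights, 17 with the name-number term, 16 by DESeq2, 5 with the length trend removed and 1 with that and the block. Leaving out 1 library gave 0 to 23 (Tg-TAC 6; 10 without Tg-TAC 2, 7 without Con-TAC 6). Apart from the length, filter and library choices, which change what enters the fit, the cause was not tested.

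The replicate block gave 2659, 493 and 0 genes in cSirt4-Tg hearts, control hearts and the interaction. Libraries of the same replicate number correlated at -0.118 to 0.129, so the numbers were not taken to pair libraries. The Sirt4 difference changed sign to 0.0924 with the length trend removed (exact permutation p = 0.349), and ran from -0.0791 to 0.04 when 1 library was left out. Of the 178 genes that TAC raised at least 2-fold in control hearts, 41 fell and none rose with MitoQ; of the 80 it lowered by as much, 34 rose and 7 fell. With the name-number term, which rests on Con-TAC 6 alone, Zbed6 (-0.87), Ndufb3 (0.2606), Mrpl52 (0.0088), Mrps6 (0.0186), Erap1 (-0.1108) and Hspb2 (0.0762) changed sign. Of the 100 genes that changed among those the naming rule took, 70 kept their call in every leave-out repeat and 71 with the length trend removed.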
